A study of Mus musculus with 2 samples.

Results

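Circular RNAs (circRNAs) of the transcription factor genes Foxp1, Etv6 and Nfix were examined in crypts of the small intestine, the epithelial pockets that hold the intestinal stem cells, of wild-type mice. The circRNAs were every entry of the deposited table whose gene names included Foxp1, Etv6 or Nfix, 13 of 1132 entries in all (8 for Foxp1, 4 for Etv6 and 1 for Nfix). The genes were selected on their number of circRNAs, the listed types, the shared ends and the raw back-splice reads in both libraries, so these values are given as a description and support no statement about the genes. The series held 1 group of 2 libraries (replicates 1 and 2) of total RNA from wild-type crypts, with no treatment recorded. Strain and age of the mice were not stated. Crypts are named in the titles of the samples, although their cell type was entered as stem cells, without mention of sorting. Nothing in the labels says that the libraries came from separate mice, so a spread between them may be technical.

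A circRNA forms when the 3′ end of an exon (the splice donor) is joined back to the 5′ end of the same or an upstream exon (the splice acceptor), and sequencing reads that cross this junction are called back-splice reads. The loop has no free ends and resists exonucleases. Foxp1 encodes a forkhead protein that mostly represses transcription and is known for its role in B lymphocyte development. Etv6 encodes an ETS-family repressor that blood stem cells need and that is often rearranged in human leukaemia. Nfix encodes a nuclear factor I protein, which binds palindromic DNA as a dimer and acts in muscle and brain development.

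Replicate 1 had 3546 listed back-splice reads and replicate 2 had 4441, with a median of 3 reads per circRNA over both libraries. Levels are given in CPM, back-splice reads scaled to 1000000 listed reads per library. A single read came to 282 CPM in replicate 1 and to 225 CPM in replicate 2. A listed 0 may hide a single read, because among the 373 circRNAs that had 2 reads altogether, only 1 had them in different libraries. Single reads were not always hidden, as 41 circRNAs were listed with 1 read in total. Among cell type markers, circRNAs were listed for 0 of 6 stem cell genes, 0 of 6 Paneth cell genes, 5 of 7 absorptive enterocyte genes, 3 of 6 goblet cell genes, 3 of 7 immune cell genes and 0 of 7 stroma and muscle genes, where 4% of all multi-exon protein-coding genes were named in the table. Entries with both ends at splice sites of 1 transcript were listed for 2 of the enterocyte genes, none of the goblet cell genes and 3 of the immune cell genes, and those of Apoa1, Fcgbp and Muc2 were of the antisense type. The table holds circRNAs alone, so a marker without one says nothing about its linear RNA.

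The sequences shown are those whose edges could be read from annotated transcripts: the Nfix circle, with both ends known, and the Etv6 exon at which a circRNA with 12 reads ended. The Nfix circRNA was exactly exon 2, which in this family encodes most of the DNA-binding and dimerisation domain. It lay on the minus strand at chr8:84771784-84772315 (mm10, GENCODE M21) and was 532 bases long. The back-splice places the end of this exon before its start. The last 100 bases are in lower case and the first 100 bases, which follow them in the circle, are in capitals, 5′ to 3′.
Nfix back-splice junction: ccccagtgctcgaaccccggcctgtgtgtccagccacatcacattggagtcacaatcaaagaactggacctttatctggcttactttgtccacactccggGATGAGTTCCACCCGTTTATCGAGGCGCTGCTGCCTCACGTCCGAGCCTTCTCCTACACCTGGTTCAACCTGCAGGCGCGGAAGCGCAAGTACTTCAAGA
The Etv6 exon lay on the plus strand at chr6:134137285-134137417 (mm10), 133 bases, and the capitals mark its last 20 bases, next to the splice donor that the circRNA used.
Etv6 exon at the upper end: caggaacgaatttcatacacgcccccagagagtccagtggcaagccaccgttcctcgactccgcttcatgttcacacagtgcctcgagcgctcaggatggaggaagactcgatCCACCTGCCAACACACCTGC

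Foxp1 had the highest summed level of the 3 genes and the most uneven one, with 6 reads in replicate 1 and 37 in replicate 2. These were 1692 and 8331 CPM, a mean of 5012 ± 4695 CPM (SD, n = 2), which ranked Foxp1 146 of 885 gene symbols in replicate 1 and 17 in replicate 2. Etv6 had 12 and 18 reads, 3384 and 4053 CPM, a mean of 3719 ± 473 CPM (SD, n = 2). Nfix had 7 and 4 reads, 1974 and 901 CPM, a mean of 1437 ± 759 CPM (SD, n = 2). Foxp1 lay below both other genes in replicate 1 and above both in replicate 2, so its place in the order was not settled by these libraries. Etv6 lay above Nfix in both when all listed circRNAs were counted. With only circRNAs listed as exon (a type described below), the order was reversed, as Etv6 had none and Nfix had 7 and 4 reads. The median summed level over the 885 gene symbols was 507 CPM.

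Replicate 2 held 86.0% of the Foxp1 reads (95% Clopper-Pearson interval 72.1 to 94.7%), 60.0% of the Etv6 reads (40.6 to 77.3%) and 36.4% of the Nfix reads (10.9 to 69.2%), where it held 55.6% of all listed reads. Intervals cover counting error only, and no molecular identifiers are recorded, so several reads may come from 1 molecule. The immune cell markers Adgre1, Ikzf1 and Bcl11b, of macrophages and lymphocytes, also had more reads in replicate 2 (26 in all) than in replicate 1 (4 in all). Most of these were of Adgre1 (4 and 18 reads), while Ikzf1 and Bcl11b had 1 circRNA each, with 0 and 4 reads. Ptprc, Cd3e, Cd8a and Cd79a had no circRNA listed. The enterocyte markers had 101 and 90 reads: Sis 64 and 68, Enpep 24 and 16, Alpi 11 and 4, Apoa1 2 and 0, and Apoa4 0 and 2. The goblet cell markers had 9 and 0, none of them in circRNAs at splice sites, and those of Fcgbp and Muc2 were antisense. The part of these cell types in the Foxp1 values was not tested.

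**Figure D1:**
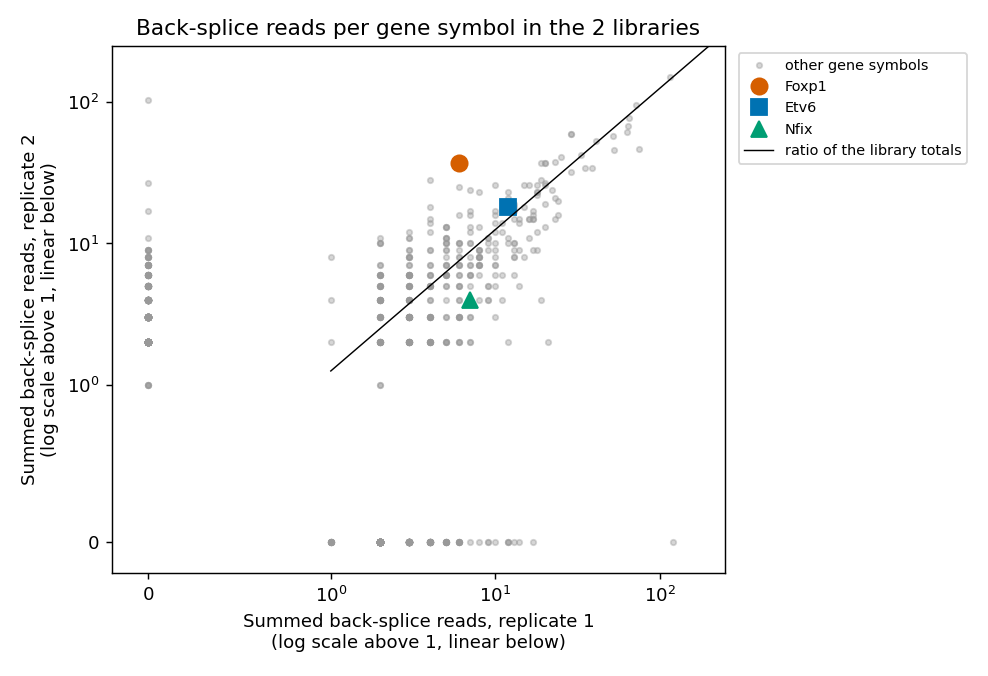
Summed back-splice reads of each of 885 gene symbols in replicate 1 (x axis) and replicate 2 (y axis), on axes that are logarithmic above 1 and linear below; the line is the ratio of the library totals. Foxp1 (6 and 37 reads) sits above the line, Etv6 (12 and 18 reads) near it and Nfix (7 and 4 reads) below it.

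When the reads of every circRNA were set against the library totals (exact binomial test, two-sided, Benjamini-Hochberg adjustment over all 1132), 18 circRNAs (1.59%) had an adjusted p under 0.05, 13 higher in replicate 1 and 5 higher in replicate 2. One was among the 13 of Foxp1, Etv6 and Nfix: the leading Foxp1 circRNA, with 0 and 16 reads. That test runs over the whole table and compares the reads of these 2 libraries. Because the genes were selected on the same reads, it is no independent test of them, and nothing is read from the count.

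The 13 circRNAs fell into 3 listed as exon and 10 listed as intron. Over the whole table, exon was the authors' type for 1054 circRNAs (93.1%) and intron for 53 (4.68%). The sources used here did not define these types. Foxp1 and Etv6 thus held 10 of the 53. By reads, the exon type took 11 of the 25 in replicate 1 (44.0%, 95% interval 24.4 to 65.1%) and 4 of 59 in replicate 2 (6.78%, 1.88 to 16.5%), a mean of 25.4 ± 26.3% (SD, n = 2). All circRNAs of the table together had 95.2 ± 1.77% of their reads in the exon type. For Foxp1 the 2 circRNAs of the exon type had 4 reads, all of them in replicate 1. The 6 of the intron type had 2 reads there and 37 in replicate 2. Each of the 2 exon-type circRNAs had 2 reads, and only 1 of the 373 circRNAs with 2 reads had them in different libraries. Nothing is therefore read from their lying in 1 library.

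**Figure D2:**
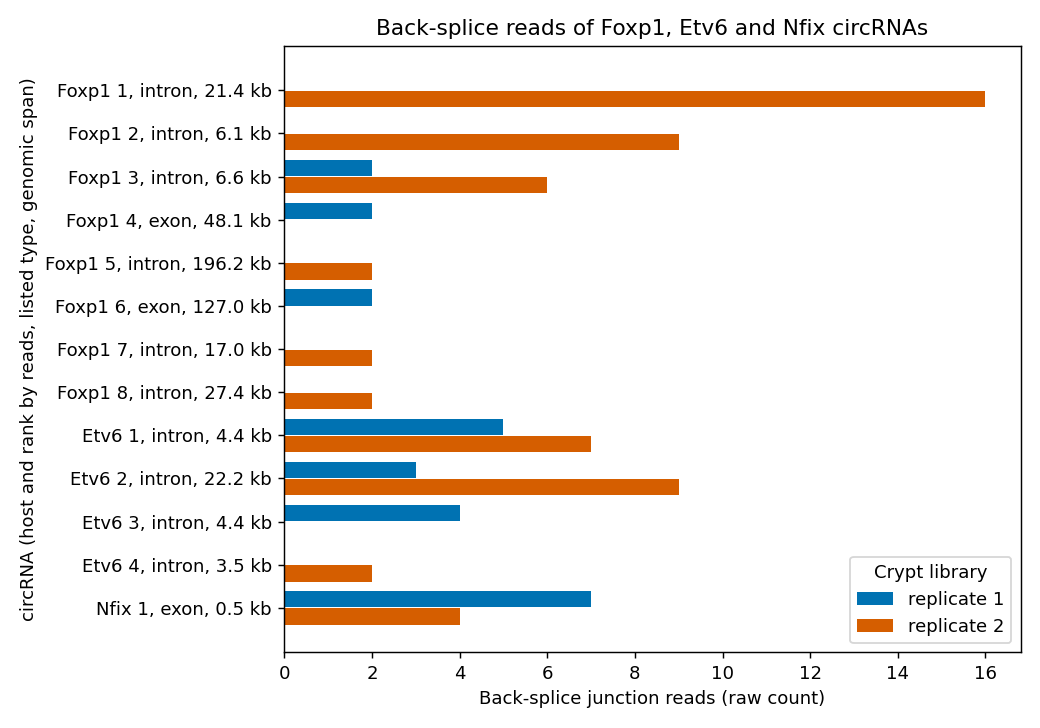
Raw back-splice reads (x axis) of the 13 circRNAs, numbered within each gene by their reads, with their listed type and genomic span; blue bars are replicate 1 and orange bars replicate 2. Replicate 2 holds the largest Foxp1 value (16 reads), and 4 circRNAs (Foxp1 3, Etv6 1, Etv6 2 and Nfix 1) have a bar in both libraries.

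All 8 Foxp1 circRNAs lay upstream of the annotated start codon in each of the 12 coding transcripts of the basic annotation, and none held a coding base. In most of the 12, however, no circRNA contained a whole exon, and each reached to or past the 5′ end of the transcript. For those transcripts, lying upstream of the start codon does not place the circRNAs within the transcript. Foxp1 runs on the minus strand of chromosome 6 from 98925338 to 99522721, so the upper coordinate of a circRNA is its acceptor side and the lower coordinate its donor side. Their ends met at a single noncoding exon (99435216 to 99435345, 130 bases): 5 of the 8 circRNAs had an end on it, which together took 37 of the 43 reads (86.0%), 4 from replicate 1 and 33 from replicate 2. Every one of the 8 shared an end with another Foxp1 circRNA, which describes a property the genes were selected on.

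The leading Foxp1 circRNA (99435216 to 99456580, 21365 bases, listed as intron) had 0 and 16 reads, 0 and 3603 CPM. It joined the donor of that exon back to position 99456580, which lay 21235 bases upstream of the exon, in an interval of 84200 bases with no annotated Foxp1 exon. All 20 reads on this unannotated end, over 3 circRNAs, came from replicate 2.

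The next in rank joined positions downstream of the exon back to its acceptor at 99435345. From 99429210 (6136 bases, intron) there were 0 and 9 reads. From 99428789 (6557 bases, intron) there were 2 and 6 reads, 564 and 1351 CPM, a mean of 958 ± 557 CPM (SD, n = 2), and this was the only Foxp1 circRNA with reads in both libraries. These positions lay 421 bases apart inside an annotated intron of 126777 bases. Another position in the same intron, 99418384 (16962 bases, intron), had 0 and 2 reads. The outer ends of the 2 leading circRNAs were also joined to each other (99429210 to 99456580, 27371 bases, 0 and 2 reads), which was the 1 circRNA of the 13 with neither end at an annotated exon edge.

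The other Foxp1 circRNAs reached over much longer distances and had 2 reads each. The pair listed as exon matched annotated splice sites at both ends. The first ran from 99260345 to 99308438 (48094 bases, 2 and 0 reads) over noncoding exons of 75 and 95 bases, with a spliced length of 170 bases between introns of 97315 and 126777 bases. The other ran from 99308344 to 99435345 (127002 bases, 2 and 0 reads), with a spliced length of 225 bases. The last joined 99260345 to the unannotated end at 99456580 (196236 bases, intron, 0 and 2 reads). It had the longest span of the 1132 circRNAs, and 2 of the 3 circRNAs of at least 100000 bases in the table were those of Foxp1. With 2 reads in 1 library, none of these 3 has a replicate check.

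**Figure D3:**
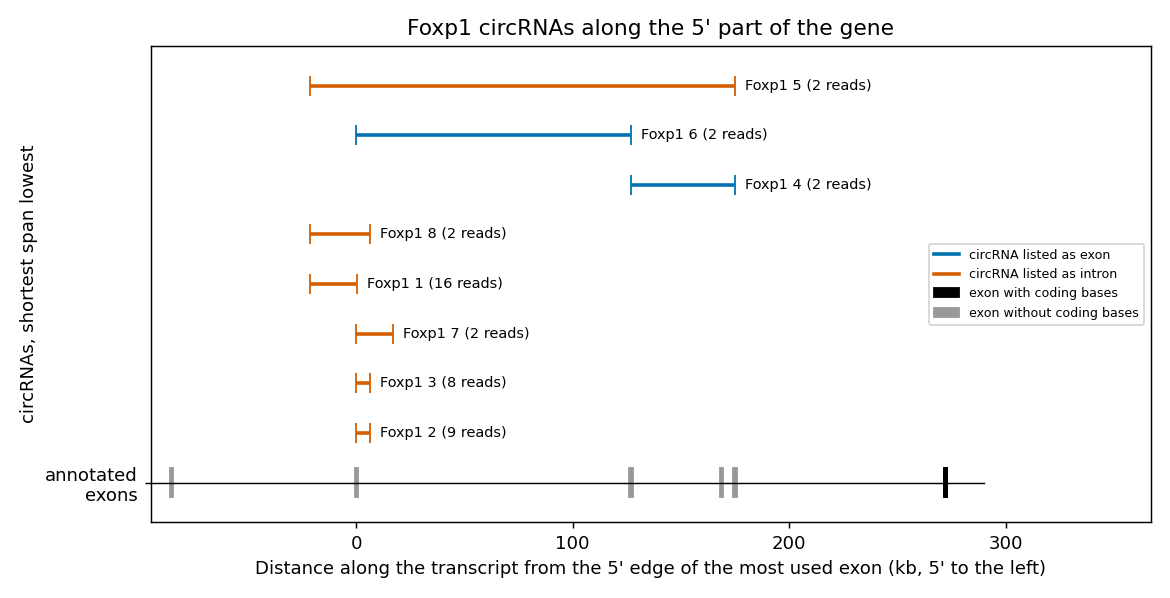
Foxp1 circRNAs drawn to scale as horizontal lines along the transcript (x axis, kb from the 5′ edge of the exon at 99435216 to 99435345, 5′ to the left), stacked by span, with annotated exons of coding basic transcripts below, widened where needed to be seen. The 5 most compact, listed as intron, cluster around 0 kb, and the first exon with coding bases lies downstream of them all.

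The Foxp1 circRNAs were also listed under Gm20696, an annotated gene on the same strand that runs from 99257484 to 99666797, and 2 of them under the intronic transcript Gm20705. By splice sites, the exon-type circRNA from 99260345 to 99308438 matched Foxp1 transcripts alone, whereas the one from 99308344 to 99435345 also matched a Gm20696 transcript. For the 6 of the intron type the table does not separate the overlapping genes. None of the unannotated Foxp1 ends fell in an exon of any of the 3 genes.

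Etv6 had 4 circRNAs, all of the intron type and each with 1 end at an annotated exon edge. Etv6 runs on the plus strand of chromosome 6 from 134035700 to 134270158, so here the lower coordinate is the acceptor side. The leading pair had 12 reads each and both were found in both libraries. The first ran from 134062064 to 134066465 (4402 bases), with 5 and 7 reads, 1410 and 1576 CPM, a mean of 1493 ± 118 CPM (SD, n = 2). The other ran from 134115220 to 134137417 (22198 bases), with 3 and 9 reads, 846 and 2027 CPM, a mean of 1436 ± 835 CPM (SD, n = 2). These 2 held 80.0% of the 30 Etv6 reads.

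Another Etv6 circRNA began 4 bases from the first, at 134062068, and ended at the same donor, with 4 and 0 reads. The table held 6 such pairs, which share an end and have their other ends within 10 bases of each other. The shared donor at 134066465 belongs to a noncoding exon of 159 bases present in 1 of the 5 annotated Etv6 transcripts, and the unannotated ends lay 4243 and 4239 bases before that exon. The same exon supplied the acceptor of the remaining circRNA (134066307 to 134069837, 3531 bases, 0 and 2 reads), whose other end lay 3372 bases beyond it. An exon ends at 134137417 in 3 Etv6 transcripts. The exon at 134137285 to 134137417, whose sequence is printed above, is coding in 1 basic transcript of Etv6 and noncoding in the other. The end joined to it lay 22065 bases upstream, in an interval of 70819 bases without an annotated exon.

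**Figure D4:**
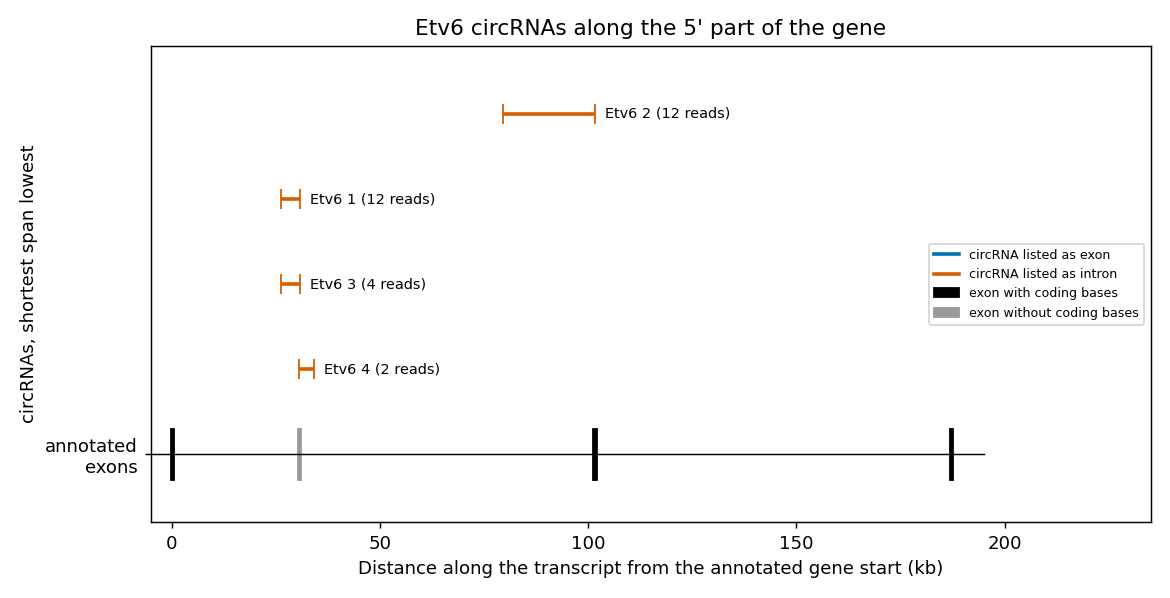
Etv6 circRNAs drawn to scale along the transcript (x axis, kb from the annotated gene start), stacked by span, with annotated exons of the basic coding transcripts below, widened where needed to be seen. All 4 lie between the first exon and the exon at about 100 kb, and 3 of them meet at the noncoding exon near 30 kb.

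The Nfix circRNA had reads in both libraries, 7 and 4, and was the only one listed for the gene. Its edges were those of exon 2 in 5 of the 8 annotated Nfix transcripts, and all 5 gave the same sequence. The downstream intron measured 43816 bases, and the upstream intron 27682 or 1038 bases, depending on which first exon the transcript uses. Every base was coding, and 532 leaves a remainder of 1 when divided by 3. CircRNAs of 1 exon were 69 of the 1132 (6.10%), with a median length of 496 bases (quartiles 349 and 735), a median GC content of 52.4% and a median of 3 reads. Nfix ranked 31 of the 69 by length, 19 by GC content (58.1%) and 10 by reads.

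The ends of the 3 genes' circRNAs were compared with the annotation alongside the rest of the table. Of the 10 of the intron type, 9 had 1 end at an annotated exon edge (90.0%), none had both and 1 had neither. Among the other 43 circRNAs of that type in the table, 35 had 1 such end (81.4%) and 7 had none (16.3%). Among all 1054 of the exon type, 1019 had both ends at exon edges (96.7%). Since the types were not defined, this difference between them may follow from how the label was given, and nothing is read from it. Both ends were splice sites of 1 transcript in 3 of the 13, against 89.1% of the table. The intron type was found in both libraries in 3 of 10 cases for Foxp1 and Etv6, in 5 of the other 43, and the exon type in 30.5% of 1054.

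**Figure D5:**
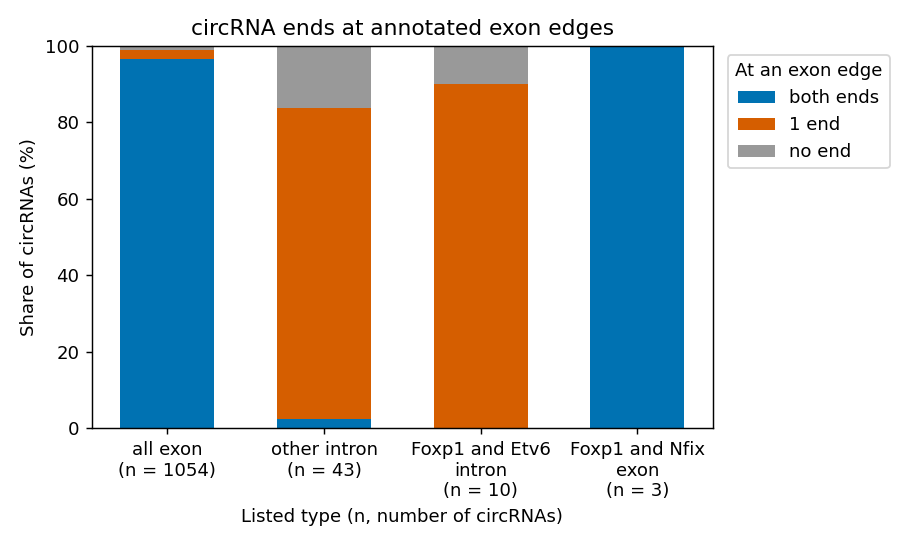
Share of circRNAs (y axis, %) with both ends, 1 end or no end at an annotated exon edge, by listed type; n is the number of circRNAs. The intron type of Foxp1 and Etv6 has 1 end at an exon edge in 9 of 10 cases, as do 35 of 43 others of that type, whereas the exon type has both ends there in 96.7%. The types are the authors', with no definition given.

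Reuse of ends was counted over the table, as a description, since shared ends entered the selection of the genes. The table held 2068 distinct ends, of which 142 were not at an annotated exon edge. Of these, 10 (7.04%) were used by at least 2 circRNAs, and 2 of the 10 were the Foxp1 ends at 99456580 and 99429210. The former was used by 3 circRNAs, a number reached by 4 unannotated ends in the table. Of 1926 annotated ends, 8.31% were used by at least 2 circRNAs, and the Foxp1 exon edge at 99435345 was 1 of 3 used by at least 4.

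Relatives of the 3 genes were looked up in lists of their families. Of 20620 multi-exon protein-coding genes, 825 (4%) were named in the table. Leaving out Foxp1, Etv6 and Nfix, which were selected for having circRNAs, 1 of 43 forkhead genes, 2 of 26 ETS genes and 0 of 3 nuclear factor I genes were named. The forkhead gene was Foxn2, a transcription factor gene with 1 circRNA at splice sites and 11 and 14 reads, a mean of 3127 ± 35.6 CPM (SD, n = 2). The ETS genes were Elf2, with 3 circRNAs, 10 and 17 reads and 3324 ± 713 CPM, and Elf4, with 0 and 4 reads. All 3 of Elf2 were of the exon type and at splice sites of 1 transcript, and none of the 4 of Etv6 was.

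Other transcription factor genes of the intestine were named for 2 of 48 (4.17%). Isx, which encodes an intestinal homeobox factor, had 4 and 3 reads, and Nr1h4, which encodes the bile acid receptor FXR, had 0 and 2. Among 20 genes of corepressor and coactivator subunits, Ep300, an acetyltransferase gene, was listed, with 3 circRNAs, 8 reads in each library and 2029 ± 321 CPM (SD, n = 2). Each circRNA of Isx, Nr1h4 and Ep300 was of the exon type.

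The genes nearest in level were found by the distance between log2(CPM + 1) values over the 2 libraries. Gm20696 had distance 0 from Foxp1 because it shares its circRNAs, and Bub1b, a spindle checkpoint gene with 6 and 38 reads, came next at 0.04. Slc12a8 (13 and 18 reads, 0.12) and Gmds (13 and 19 reads, 0.14) were nearest to Etv6. Ablim1, Mmp15 and Tnks2 had the 7 and 4 reads of Nfix. With 2 libraries and so few reads, equal values are frequent.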

How the data were processed

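Libraries were made from total RNA of wild-type crypts with an MGI kit, per the labels' protocols. Alignment, circRNA calling and filtering were not given in the sources used here, and mm10 is named as the build in the submitters' processing notes. The deposited counts were whole numbers of back-splice reads per circRNA, per the file headers. The deposited values headed CPM were a normalised signal, each count times 272 in replicate 1 or 233 in replicate 2; TMM factors computed with edgeR 4.0.16 gave the same constants. They served as an alternative. Columns were matched by sample title, and 0 columns of sample values were unused. The listed totals are not sequencing depths.

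Ends were compared with exon edges in GENCODE mouse M21, where 884 of 885 Ensembl identifiers were found, and sequences were read from its transcripts. The sequence at unannotated ends was not used here. The exact binomial test (scipy 1.17.1, Benjamini-Hochberg) was tested on simulated data. The genes, lists and tests were chosen with earlier results of these data known. Genes named are the 3 hosts, up to 5 hosts per list by mean level, and the 2 nearest in level per gene; Tnks2 was added because it tied, and the marker genes Adgre1, Ikzf1, Bcl11b, Ptprc, Cd3e, Cd8a, Cd79a, Apoa1, Fcgbp and Muc2 and Mgam after their values were seen.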

Additional observations from a re-analysis of the deposited data

How the results depend on the processing

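No paired analysis was possible because the series has 1 group. Leaving out each library in turn gave summed levels of 1692 to 8331 CPM for Foxp1, 3384 to 4053 CPM for Etv6 and 901 to 1974 CPM for Nfix, 7 to 10 circRNAs listed, and an exon-type share of 6.78 to 44.0% of the reads. The Foxp1 level was 564 CPM with the exon type alone, less than 1 SD from the mean only because the SD was so large. The Etv6 level was 2929 CPM with circRNAs of at least 5 reads, a filter that left 6 of the 13 circRNAs. Reads in both libraries left 4, and assigning hosts by matching splice sites left 12. Etv6 had no circRNA of the exon type or at splice sites of 1 transcript, so its level with either alone was 0. Nfix kept 1437 CPM with either, so Etv6 lay above Nfix only when the intron type was included. The 18 circRNAs differing between the libraries became 15 with TMM library sizes, 19 with at least 5 reads and 12 of the exon type. The count of 3 circRNAs at splice sites was the same with ends allowed within 2 bases, with any transcript, and with introns required on both sides, the last chosen after seeing the data. The deposited values gave 5134, 3733 and 1419 CPM for Foxp1, Etv6 and Nfix. The low counts limit all of these values.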

Other observations

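Mgam, the gene of the brush-border enzyme maltase-glucoamylase, had as many circRNAs of the intron type as Etv6 (4 of 4), and each had 1 end at an annotated exon edge. Their reads in replicates 1 and 2 were 10 and 0, 4 and 6, 3 and 0, and 0 and 3, with spans from 25819 to 36175 bases. No other gene except Foxp1, with the overlapping Gm20696, had more than 2 of this type. Mgam was chosen after its values were seen.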
